A study of Homo sapiens with 4 samples.

Results

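The HNF4A locus was examined as the set of RNAPII-linked DNA loops with at least 1 anchor on the HNF4A gene body or within 100 kb on either side of it, which is the window chr20:44255699-44532845 of GRCh38 (277.1 kb). POLR2A HiChIP-seq joins proximity ligation in fixed nuclei to immunoprecipitation of POLR2A, the catalytic subunit of RNAPII, and each paired-end tag (PET) links a pair of genomic fragments that were ligated together. It was carried out in HepG2, a human hepatocellular carcinoma cell line, after mock treatment (sterilized water) or treatment with 20 µM pyridostatin (PDS), a small molecule that binds G-quadruplex (G4) structures, for 24 h. There were 2 libraries per condition, and the study's question was whether a G4 ligand alters RNAPII-linked contacts. The window held 86 distinct loops of the 77862 in the lists of both conditions, 74 of them in the mock list and 20 in the PDS list.

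The deposited data are 1 list of loops per condition, with the replicates already combined, so there was no spread between replicates to test against and no p-value is given. Both lists begin at 3 PETs, which leaves room for up to 2 PETs in any loop that a list does not name. The loop caller is not known here, and any other filter that it applied would leave room for more. All intervals are 95% Wilson intervals (for a PDS/mock ratio, from the PDS share of the combined count), and they cover counting error only. They treat loops, and the PETs of a loop, as independent of one another. Loops share anchors and PETs come in loops of at least 3, so the intervals can be too narrow. The depth of the libraries was not used here, so the locus is set beside the rest of chromosome 20 and all chromosomes, where listed PETs summed to 254647 in mock-treated and 67001 in PDS-treated cells. As a check of the cell label, 12 of 13 hepatocyte marker genes and 2 of 5 blood cell marker genes had a loop anchor within 1 kb of a start site in the mock list, against 9 and 1 in the PDS list.

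HNF4A encodes hepatocyte nuclear factor 4 alpha, a nuclear receptor that binds DNA as a homodimer and maintains the expression of a large part of the genes that define hepatocytes, including those for apolipoproteins, coagulation factors and enzymes of bile acid and drug metabolism. The gene is transcribed from a pair of promoters. P1 is the main promoter in adult liver, and P2 is used in pancreatic islets and in fetal liver and gives isoforms with a different N terminus that lack the first activation function. FOXA and GATA factors form a regulatory network with HNF4A in liver cells.

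In GENCODE 44, HNF4A (ENSG00000101076) occupies positions 44355699 to 44432845 of chromosome 20 and is read from the plus strand. Of its 17 transcripts, 4 start at P2, at 44355699 or shortly after it, and 13 start at P1, from 44401239 on, 45.5 kb downstream. HNF4A-AS1 (ENSG00000229005), a long non-coding RNA gene on the opposite strand, runs from 44372746 to 44395706 between P2 and P1, with start sites at 44384671 and 44395706. Altogether 14 genes overlap the window. Upstream are GDAP1L1, FITM2, R3HDML, R3HDML-AS1 and a Y_RNA gene, and downstream are LINC01620, RPL37AP1, TTPAL, SERINC3 and the 5′ end of PKIG, while MIR3646 and the non-coding ENSG00000233376 lie within HNF4A.

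The 250 bases before each HNF4A start site are shown from RefSeq (GRCh38.p14, plus strand) because the loops at these promoters are compared below. P2 is chr20:44355449-44355698 and P1 is chr20:44400989-44401238. Capitals mark runs of at least 3 G or of at least 3 C, the building blocks of a G4 motif on the plus or the minus strand.
P2: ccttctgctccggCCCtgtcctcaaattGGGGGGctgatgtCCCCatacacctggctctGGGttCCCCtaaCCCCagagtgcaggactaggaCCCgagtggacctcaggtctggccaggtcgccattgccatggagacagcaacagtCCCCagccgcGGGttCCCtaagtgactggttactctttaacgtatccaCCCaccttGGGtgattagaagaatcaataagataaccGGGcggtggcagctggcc
P1: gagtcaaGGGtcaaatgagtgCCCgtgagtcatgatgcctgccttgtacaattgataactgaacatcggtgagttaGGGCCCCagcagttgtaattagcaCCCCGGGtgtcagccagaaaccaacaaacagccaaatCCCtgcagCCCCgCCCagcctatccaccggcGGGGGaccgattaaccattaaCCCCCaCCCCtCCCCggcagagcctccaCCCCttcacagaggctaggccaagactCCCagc
P2 holds 13 such runs and P1 holds 15. The windows are alike in base composition, with 58.4% G and C at P2 and 58.0% at P1, and in neither are the runs close enough on 1 strand to make a predicted G4 motif. Such a motif is taken here as 4 runs, each of 3 or more G, with spacers of 1 to 7 bases and on either strand. Of 35116 promoter windows of the RefSeq table, 114 (0.325%) hold CAAAGTCCA on either strand, a core of the HNF4 motif searched after the sequences had been read, and neither HNF4A window is among them.

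Predicted G4 motifs do lie close to P1, and 4 of them are in its loop anchor, chr20:44399287-44405452. Of these, 3 are shown because PDS binds G4 structures, with the G runs in capitals and the position of the first base relative to the P1 start site in the order given.
P1 motif at -591: GGGGcaGGGtGGGatcacaGGG
P1 motif at 58: GGGaGGGcggaGGGcGGGGG
P1 motif at 83: GGGGtGGGcgcccaGGGtaGGG
All 3 read G-rich on the plus strand. The motif upstream of the start site is intronic for P2 transcripts, and the pair downstream overlaps an annotated exon of the gene. The P2 anchor, chr20:44350590-44359876, holds 2 motifs, both more than 3 kb upstream of P2 and inside R3HDML-AS1.
P2 motif 1, minus strand, chr20:44352136-44352160: GGGtGGGatggtGGGGGGagaGGGG
P2 motif 2, plus strand, chr20:44352466-44352489: GGGaactGGGtGGGGGaagatGGG
These are letters of the reference sequence, and whether any of them folds in HepG2 cells was not measured in these files.

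Fewer loops and fewer PETs were listed at the HNF4A locus after PDS treatment. The number of listed loops went from 74 to 20, a PDS/mock ratio of 0.270 (95% interval 0.166 to 0.441), and their PETs summed to 300 and 62, a ratio of 0.207 (0.157 to 0.271). For loops with an anchor on the gene body itself the numbers were 37 and 9, with 160 and 29 PETs. The loop ratio at the locus lies beside 0.360 (0.342 to 0.378) over the rest of chromosome 20 and 0.283 (0.278 to 0.287) over all chromosomes, and its interval includes both. The PET ratio was lower than that of the rest of chromosome 20, 0.318 (0.310 to 0.327). Its interval does not overlap that of the rest of chromosome 20 and reaches the 0.263 of all chromosomes. PETs come in loops of at least 3, so the intervals of PET ratios, scaled or not, are too narrow. With all listed loops counted, the loop ratio of the locus was not set apart from that of the rest of chromosome 20. These counts are not scaled, and the PET ratio became 0.786 (0.598 to 1.03), with an interval that includes 1, when PETs were taken relative to the total of each list, and 0.652 (0.497 to 0.856) relative to the PETs of each list on chromosome 20.

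In both lists, 8 loops of the locus had the same anchors. They are 10.8% of its mock loops (5.58 to 19.9%) and 40.0% of its PDS loops (21.9 to 61.3%), beside 11.0% of mock loops over all chromosomes and 16.7% on chromosome 20. The share at the locus is near that of all chromosomes, and its interval includes both. With anchors extended by 5 kb, 20 mock loops of the locus met a PDS loop, 27.0% (18.2 to 38.1%), against 25% over all chromosomes and 39.9% (38.6 to 41.2%) over the rest of chromosome 20, whose interval lies above that of the locus. Among the 8 shared loops, 7 had fewer PETs after PDS, 1 had the same count and 0 had more, where 55.3% of shared loops over all chromosomes and 56.8% on chromosome 20 had fewer. The remaining loops were 66 in the mock list only and 12 in the PDS list only, and 60.9% of PDS loops over all chromosomes were likewise not in the mock list, as were 53.4% on chromosome 20.

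**Figure D1:**
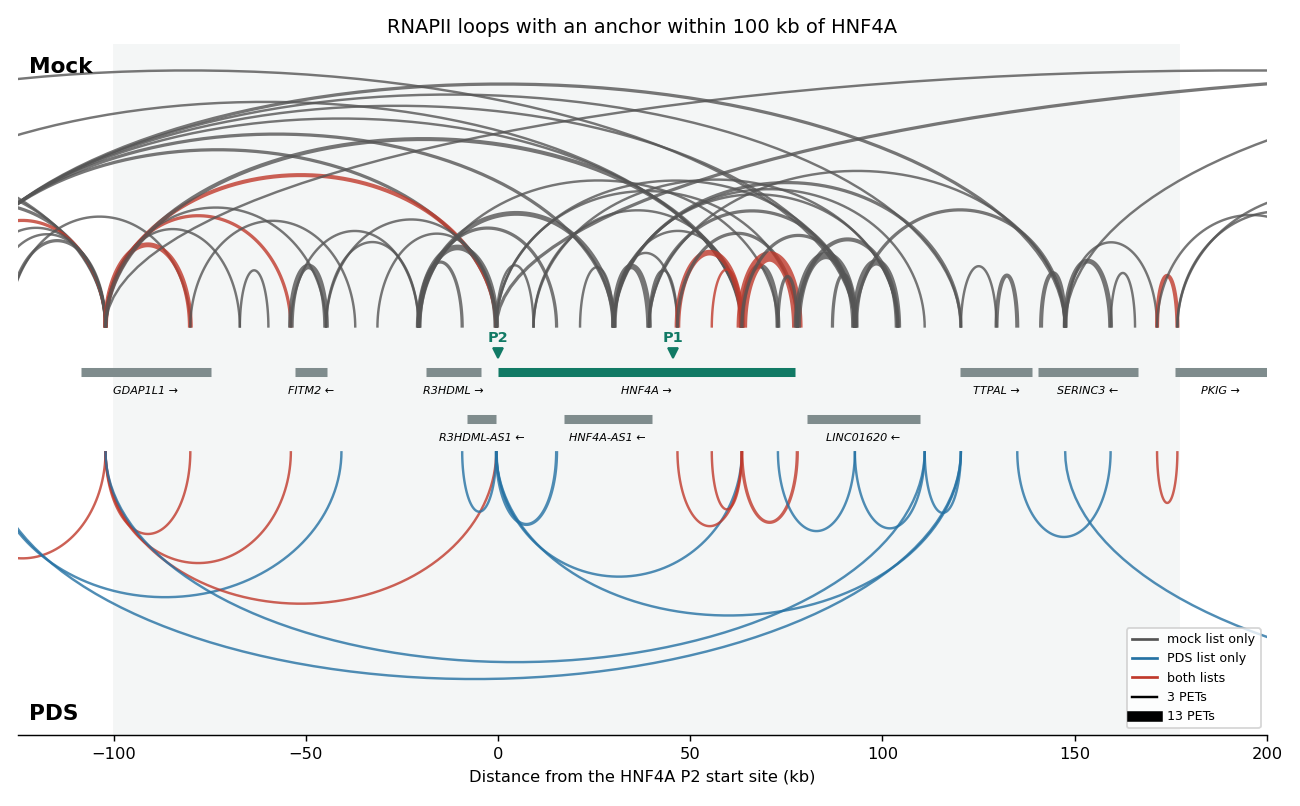
Loops of the HNF4A locus plotted by the distance of their anchor midpoints from the P2 start site (x axis, kb), with mock loops above and PDS loops below the genes and line width rising with PETs from 3 to 13. Grey loops are in the mock list only, blue in the PDS list only and red in both (8 loops); the shaded band is the window, and arcs that leave the plot have an anchor farther away.

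At the HNF4A locus, as elsewhere, the PDS/mock ratio fell as the minimum of PETs was raised. In mock-treated cells 34 loops of the locus had at least 4 PETs and 17 had at least 5, whereas in PDS-treated cells 2 loops had 4 PETs and 0 had more. At a minimum of 4 PETs the PDS/mock ratio was 0.0588 (0.0156 to 0.222) at the locus, 0.270 (0.248 to 0.293) over the rest of chromosome 20 and 0.204 (0.198 to 0.210) over all chromosomes. The interval at the locus lies below that of the rest of chromosome 20 and overlaps the interval of all chromosomes. At a minimum of 5 PETs, 17 loops against 0 allow a ratio of up to 0.226. The rest of chromosome 20 had 1365 and 263 loops, a ratio of 0.193, and all chromosomes had a ratio of 0.149. Both values lie within what the locus allows. Conversely, 18 of the 20 PDS loops at the locus had 3 PETs, 90% (69.9 to 97.2%), against 64.9% (62.8 to 67.0%) of PDS loops over the rest of chromosome 20. Over all chromosomes the share was 71.1% (70.5 to 71.8%), which the interval at the locus includes. In the mock list the corresponding shares were alike, 54.1% (42.8 to 64.9%) at the locus and 53.2% over the rest of the chromosome.

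Few other genes showed so low a ratio for loops of 4 or more PETs. The same window was placed on every protein-coding gene, and 612 genes had at least 20 such mock loops. Their ratios had a median of 0.207 and quartiles of 0.143 and 0.286, and 14 of them (2.29%) lay below that of HNF4A. The interval of HNF4A, 0.0156 to 0.222 from 34 and 2 loops, includes this median. On chromosome 20 the 182 such genes had a median of 0.212, and 2 of them were lower. These were FITM2, whose window overlaps that of HNF4A, and TP53INP2, each with 22 mock loops and 1 PDS loop of 4 or more PETs (both were picked out after their values were seen). With all loops counted HNF4A did not stand apart in this way. Among 409 genes with at least 50 mock loops, the median ratio was 0.293, and 37.2% of genes were lower than HNF4A. Windows of neighbouring genes share loops, so these genes are not independent of one another.

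Whether a mock loop was listed again after PDS depended on its count, at the locus as elsewhere. Of 40 mock loops of the locus with 3 PETs, 1 was in the PDS list (2.5%, interval 0.443 to 12.9%), against 9.86% over the rest of chromosome 20 and 5.97% of all other loops. Of 10 loops with 5 to 6 PETs, 3 were listed again, and of 6 with 7 to 9 PETs, 1 was, where 43.4% over the rest of chromosome 20 were. Within each class of PETs the interval at the locus includes the share of all other loops. Of the 17 loops with 5 or more PETs, 12 were not in the PDS list, and the same held for 73.2% of such loops over all chromosomes and 67.5% on chromosome 20.

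**Figure D2:**
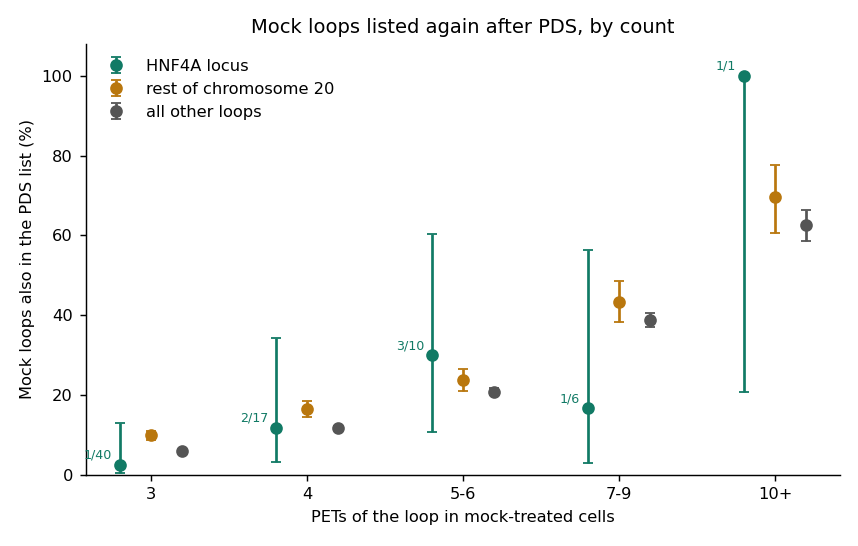
Percentage of mock loops that were also in the PDS list (y axis) by the number of PETs of the loop in mock-treated cells (x axis), with 95% Wilson intervals; the fractions beside the green points are loops of the HNF4A locus in the PDS list over mock loops. The share rose with PETs over the rest of chromosome 20 (orange) and all other loops (grey), and the wide intervals at the locus include the shares of all other loops in every class.

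The P2 anchor had more RNAPII-linked loops than the P1 anchor, but it is shared with the start sites of R3HDML-AS1, a long non-coding RNA gene on the opposite strand, so the loops given for P2 are equally those of R3HDML-AS1. The P2 anchor took part in 9 loops (35 PETs) of the mock list and 5 loops (16 PETs) of the PDS list, a ratio of 0.556 (0.195 to 1.58). The P1 anchor took part in 4 loops (17 PETs) and 1 loop (3 PETs), a ratio of 0.250 (0.0376 to 1.66). With anchors up to 5 kb from the start sites counted, which adds an anchor of HNF4A-AS1 to P1, mock loops numbered 7 at P1 and 9 at P2. The intervals of P1 and P2 overlap and both include 1, so a difference between the promoters in their response, or a change at either one alone, was not detectable with these numbers. The P2 anchor is also wider, 9.3 kb against 6.2 kb, and over the 35 anchors of the window the number of mock loops went with anchor width (Spearman's rho 0.72, as a description of anchors that share loops). Among all 73492 anchors of the mock list, 99.3% had fewer loops than P2 and 90.7% fewer than P1, and the median anchor had 1.

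In mock-treated cells the partners of the P2 anchor lay on both sides. Its loop with most PETs went to the anchor of R3HDML, 20.2 kb upstream, with 7 PETs, and was not in the PDS list. GDAP1L1, 101.6 kb upstream, was joined by 5 PETs in mock-treated and 3 in PDS-treated cells, the 1 loop of P2 in both lists. The promoters of OSER1 and its divergent transcript OSER1-DT, 145.0 kb upstream and outside the window, were joined by 4 PETs, and that of FITM2 by 3. The anchor shared by P2 and R3HDML-AS1 thus had listed contacts with the promoters of several upstream genes before treatment. The other mock loops of P2 went to an intergenic anchor 30.9 kb upstream, to an anchor 9.7 kb downstream within the gene, to the 3′ end of HNF4A at 78.3 kb and to LINC01620, with 3 PETs each. The longest, of 588.3 kb and 4 PETs, reached the promoter of PABPC1L.

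Of PDS loops over all chromosomes 60.9% were not in the mock list, and on chromosome 20 the share was 53.4%. At P2 this held for 4 of the 5 PDS loops. These went to an anchor at R3HDML and R3HDML-AS1 8.9 kb away (3 PETs), to an anchor 15.7 kb downstream within the gene (4 PETs), to the anchor over the middle exons of HNF4A at 63.9 kb (3 PETs) and to the promoter of TTPAL at 120.9 kb (3 PETs). All of these counts are at or just above the minimum of the lists. Each loop can have had up to 2 PETs in mock-treated cells, or more if another filter was applied. The anchor with 5 PDS loops still ranked high, since 0.920% of 28928 PDS anchors had as many or more.

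P1 was joined to fewer and nearer anchors, all of them on the HNF4A gene body. Its loop with most PETs went to the anchor over the middle exons, 16.8 kb downstream, with 7 PETs in mock-treated and 3 in PDS-treated cells, and it was the only loop of P1 in the PDS list. The others, in the mock list only, went to the anchors of the 2 start sites of HNF4A-AS1 with 3 PETs each and to the 3′ end of the gene, 31.2 kb away, with 4. No loop joined the anchors of P1 and P2 to each other in either list (0 and 0). If 3 PETs was the only filter of the lists, such a contact had at most 2 PETs in both conditions.

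HNF4A-AS1 was the promoter with most mock loops and none after PDS. Its pair of start sites lies in separate anchors, chr20:44381190-44390445 with 9 mock loops and 36 PETs, and chr20:44392470-44397479 with 4 loops and 17 PETs. These loops, 12 in all with 46 PETs since 1 of them (7 PETs) joined the anchors to each other, were all missing from the PDS list, and 0 against 12 loops allow a PDS/mock ratio of up to 0.320. That bound is below the ratio of 0.360 for the rest of chromosome 20 and above that of all chromosomes. It was singled out from the promoters of 14 genes after the values were seen. In mock-treated cells the promoters that HNF4A-AS1 contacted included those of R3HDML (6 PETs), OSER1 (4 PETs), TTPAL (4 PETs) and HNF4A P1 (3 PETs at each of its anchors). Both anchors also lie within the HNF4A gene body, and HiChIP reads carry no strand of transcription, so a contact cannot be assigned to HNF4A-AS1 rather than to HNF4A.

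The loop with most PETs at the locus joined a pair of anchors in the gene body that hold no start site of a coding or long non-coding gene, while the loops of 7 PETs within the gene body had a start site of HNF4A or HNF4A-AS1 in an anchor. The anchor chr20:44414069-44424177, 10.1 kb wide, spans exons 5 to 8 of HNF4A-202, the MANE Select transcript, and 5 predicted G4 motifs. In mock-treated cells 10 loops with 50 PETs used it, and in PDS-treated cells 4 loops with 13, of which 3 were shared, the most shared loops of any anchor inside HNF4A. Its loop to the 3′ end of the gene, chr20:44430684-44436409, had 13 PETs in mock-treated cells, the highest count of the locus, and 4 in PDS-treated cells, also the highest count there together with the loop of P2 over 15.7 kb. Besides P1 and P2 (P2 in the PDS list only), the anchor was joined in mock-treated cells to GDAP1L1 (5 PETs), OSER1 (3 PETs), HNF4A-AS1 (3 PETs) and LINC01620 (4 PETs). The anchor over the middle exons thus had contacts to both sides of the gene, and those that remained after PDS lay within it.

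By position, loops with both anchors on the gene body numbered 14 in the mock and 5 in the PDS list, with 3 shared. Those from the gene body to upstream anchors numbered 12 and 2, and those to downstream anchors 11 and 2. Loops that stayed upstream of the gene numbered 18 and 4, those downstream 14 and 5, and those that passed across it 5 and 2. Every class had fewer loops after PDS, as did the list as a whole. The share of loops with a gene start site at both anchors was 35.1% in the mock and 30.0% in the PDS list. Counted by start sites, loops with both anchors at promoters went from 26 to 6 (ratio 0.231, 0.0976 to 0.546), those with 1 from 36 to 10 (0.278) and those with none from 12 to 4 (0.333). The intervals of the 3 ratios overlap.

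Among the upstream neighbours, GDAP1L1, a paralogue of the ganglioside-induced gene GDAP1, had the most loops of any promoter in the window, 14 in the mock and 5 in the PDS list, and 4 of them were shared. Its anchor is the widest of the locus at 27.3 kb. FITM2, which encodes an endoplasmic reticulum protein needed for lipid droplet formation, had 4 mock loops and R3HDML had 7, and neither had a loop in the PDS list, which allows ratios of up to 0.960 and 0.549. The anchor of OSER1 and OSER1-DT, upstream of the window, made 7 mock loops with the locus and 1 PDS loop. It contacted GDAP1L1 (4 PETs in mock-treated, 3 in PDS-treated cells), P2, HNF4A-AS1, the middle exons of HNF4A, LINC01620, TTPAL and SERINC3, with 3 or 4 PETs each. The upstream part of the locus was thus joined to HNF4A by many loops of few PETs. Of other genes outside the window, the promoters of JPH2, RIMS4 and a distal start site of PKIG had 1 mock loop each with GDAP1L1, SERINC3 and PKIG.

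Downstream lies LINC01620, a long non-coding RNA gene transcribed towards HNF4A. Its start sites were in 10 loops (45 PETs) of the mock list and 4 loops (12 PETs) of the PDS list, and 0 were shared. Over all chromosomes 60.9% of PDS loops were not in the mock list, as were 53.4% on chromosome 20. The anchor of the LINC01620 start sites nearer to HNF4A contacted the 3′ end of HNF4A with 9 PETs and an anchor within LINC01620 with 8. These were the highest counts after that of the gene body, and neither loop was in the PDS list. SERINC3, a serine incorporator family gene, had 8 and 1 loops (ratio 0.125, 0.0203 to 0.770). TTPAL, a relative of the alpha-tocopherol transfer protein gene, had 4 and 3, PKIG, which encodes an inhibitor of protein kinase A, had 3 and 1, and the pseudogene RPL37AP1, at a start site of LINC01620, had 1 and 3. MIR3646 had none. Over the 35 anchors of the window, 28 had fewer loops in the PDS list, 5 had equal numbers and 2 had more, the anchor at RPL37AP1 and an intergenic anchor near FITM2 with 0 and 1 loops. The corresponding shares over all anchors were not computed, and the whole PDS list held 0.283 times the loops of the mock list.

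**Figure D3:**
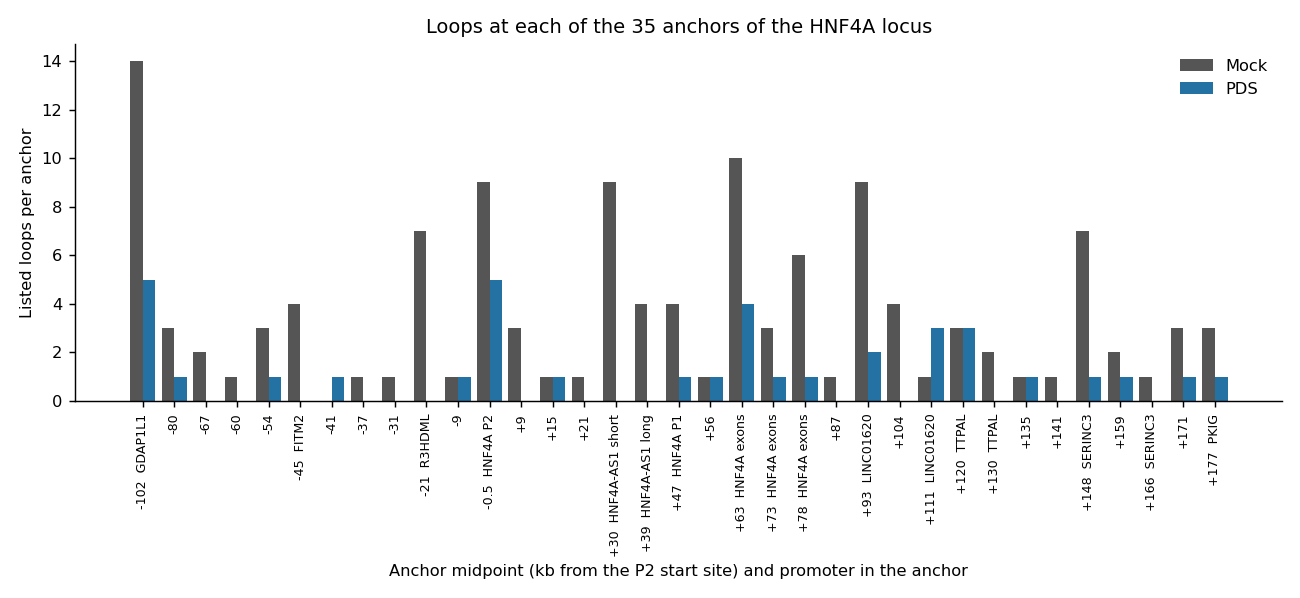
Number of listed loops (y axis) at each of the 35 anchors of the window, ordered by the distance of the anchor midpoint from the P2 start site (x axis, kb), with mock in grey and PDS in blue and the promoter in the anchor named. The anchors of HNF4A-AS1 (9 and 4 mock loops) and R3HDML (7 mock loops) have no PDS bar, and P2 goes from 9 to 5 loops.

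Mock loops with an anchor at the locus had a longer median distance than the rest of chromosome 20. For PDS loops the interval of the median included the value of the rest of the chromosome. The median distance between anchor midpoints was 39.5 kb (29.4 to 53.6 kb, from binomial ranks) in the mock list and 23.2 kb (15.7 to 91.8 kb) in the PDS list, against 20.9 and 19.5 kb over the rest of chromosome 20. Choosing loops by an anchor in a window favours long loops. With both anchors in the window, the mock median was 25.1 kb (14.4 to 35.9 kb), and this interval includes the 20.9 kb. The rule of an anchor in the window was also applied to the 479 protein-coding genes of chromosome 20 with at least 20 mock loops. Their median distances had a median of 25.1 kb, and 80.2% of them were shorter than that of HNF4A. From 50 to 100 kb there were 16 mock loops and 2 PDS loops (ratio 0.125, 0.0320 to 0.488), where the rest of chromosome 20 had a ratio of 0.318. In the other 4 distance classes the ratio at the locus ran from 0.238 to 0.364. The interval of the 50 to 100 kb class includes these values, so a response that depends on distance was not detectable here.

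Nearly all loops of the HNF4A locus had a predicted G4 motif in an anchor. The share was 71 of 74 mock loops, 95.9% (88.8 to 98.6%), and 19 of 20 PDS loops, 95% (76.4 to 99.1%), against 81.9% in both lists over the rest of chromosome 20 and 75.2 and 75.5% over all chromosomes. The interval of the mock share at the locus lies above that of the rest of the chromosome (80.9 to 82.9%). It is too narrow, however, because loops of the locus reuse anchors. The anchor of GDAP1L1 alone, with 10 predicted motifs, is in 14 of the 74 mock loops. Motifs in both anchors were found in 42 mock loops, 13 PDS loops and all 8 of the shared loops. Loops with a motif went from 71 to 19, a ratio of 0.268 (0.162 to 0.442), and those without from 3 to 1, too few to compare. Over all chromosomes the ratio was 0.284 for loops with and 0.280 for loops without a motif. Wide anchors hold more motifs by length alone, and no G4 structure was measured in these files.

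HNF4A was among the transcription factor genes of hepatocytes with most RNAPII-linked loops. The same window was applied to 20 other such genes, and 2 of them had more mock loops. These were CEBPB, a leucine zipper factor of the acute phase response, with 85 mock and 26 PDS loops (ratio 0.306, 0.198 to 0.473), and FOXA1, a pioneer factor of the liver, with 84 and 41 (0.488, 0.337 to 0.708). The next, GATA4, a zinc finger factor, had 34 and 6 (0.176, 0.0760 to 0.410). The median of the 20 genes was 14.5 mock loops. Window widths follow gene length, and the counts are not scaled to them. The window is 277.1 kb at HNF4A, 201.8 kb at CEBPB and 206.5 kb at FOXA1. Per 100 kb, HNF4A had 26.7 mock loops, CEBPB 42.1 and FOXA1 40.7. On the gene bodies alone HNF4A had the most, with 37 mock loops against 26 for CEBPB, and its gene body is the longer at 77.1 kb against 1.8 kb. Over all 19970 protein-coding genes the median was 10 mock loops, and 99.5% had fewer than HNF4A, while on chromosome 20 the median was 35 and 95.4% had fewer. Of the other factor genes, CEBPB and FOXA2 also lie on chromosome 20, and the ranks were not adjusted for chromosome.

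All 20 other factor genes had fewer loops after PDS, and 16 of them had any. Over all chromosomes the lists went from 66417 to 18778 loops, so fewer loops was the general direction. The share of all genes with fewer loops was not computed. For the 8 other factor genes with at least 20 mock loops the ratio ran from 0.176 to 0.488, with a median of 0.283. Every one of the 8 intervals overlaps that of HNF4A. Thus the response of HNF4A, with all listed loops counted, was not distinguishable from that of these genes. The highest count went from 13 PETs in mock-treated cells to 4 after PDS at HNF4A, to 7 at CEBPB, to 6 at FOXA1 and to 5 at FOXA2, each from the same mock value, and from 11 to 4 at GATA4.

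**Figure D4:**
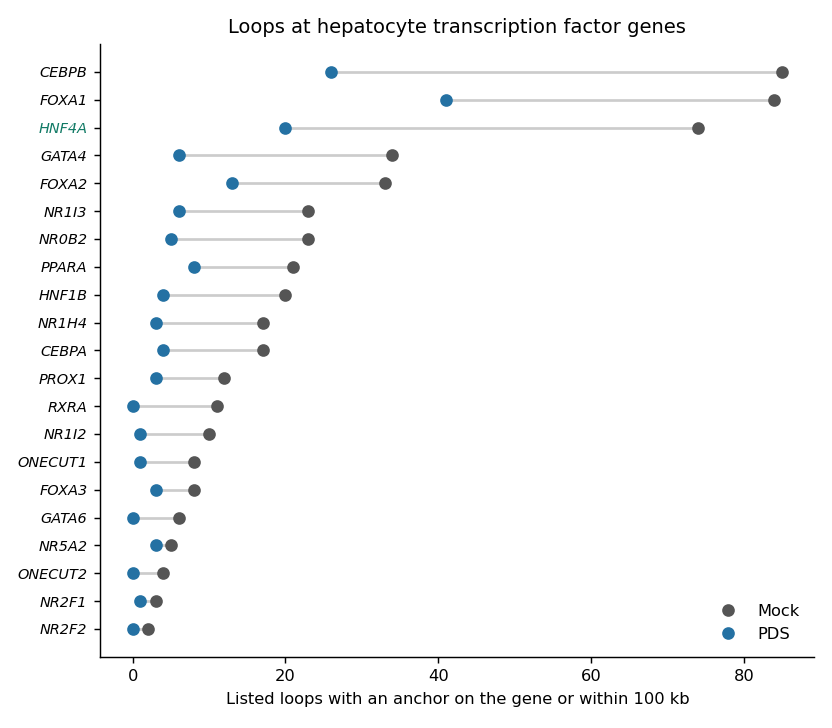
Number of listed loops with an anchor on the gene or within 100 kb (x axis) for HNF4A and 20 other hepatocyte transcription factor genes, with mock in grey and PDS in blue. Every gene has fewer PDS than mock loops, HNF4A (74 and 20) follows CEBPB (85 and 26) and FOXA1 (84 and 41), and the remaining genes have at most 34 mock loops.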

How the data were processed

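POLR2A HiChIP-seq libraries of HepG2 cells were prepared by the authors with MboI digestion, ligation, sonication and an anti-POLR2A antibody, in 2 libraries for each of the mock and 20 µM PDS conditions. The authors aligned reads to GRCh38 and processed them with HiC-Pro (3.1.0). The deposited files are 1 list of loops per condition, with unscaled whole-number counts of PETs from 3 upwards. The loop caller and the way replicates were combined are not given in the sources used here. Samples were grouped by their labels. All 4914 anchors on chromosome 20 begin and end at a GATC of GRCh38.

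Loops were matched between the lists by identical anchors. Overlap of at least 1 bp at both anchors gave the same 8 shared loops at the locus. A promoter was 1 kb on either side of a GENCODE 44 start site. P2 was the most upstream start of HNF4A. P1 had been planned as the start of the MANE Select transcript, which in this annotation starts at P2, so the start site after the largest gap was used. Named genes were those overlapping the window, protein-coding genes with a start site at an outer anchor, and the 3 other factor genes with most mock loops (others are said to be picked later). The locus, gene lists and rules were chosen with earlier results of these data known. No test was run between conditions, since replicates were not listed separately. The window rule, intervals and motif search were tested on simulated data. Alternatives were other flanks, PET minimums, scalings, overlap rules, promoter widths and motifs. BG4 ChIP-seq and RNA-seq data were not analysed here, and 1 planned factor gene and 1 motif sequence are not reported here. Computations used pysam 0.24.0, scipy 1.17.1, samtools 1.23.1, pandas 2.3.3, numpy 2.4.6 and matplotlib 3.10.9 under Python 3.11.15.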

Additional observations from a re-analysis of the deposited data

How the results depend on the processing

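Of 43 values recomputed under alternatives, 23 stayed within 1.5 times of a count or within the interval, and 20 moved. Whether a moved value had changed direction was not classed separately. The loop ratio at the HNF4A locus stayed between 0.243 and 0.312 with other flanks or with both anchors in the window, and fell to 0.0588 at a minimum of 4 PETs and 0 at a minimum of 5 PETs. The PET ratio fell to 0.0444 and 0 at these minimums. It rose to 0.786 (0.598 to 1.03), with an interval that includes 1, when PETs were scaled to the total PETs of each list. Scaled to the PETs of each list on chromosome 20 it was 0.652 (0.497 to 0.856). Both intervals treat PETs as independent and are too narrow. Shared loops numbered 20 with anchors extended by 5 kb and 5 among mock loops with at least 5 PETs. Mock loops at P1 numbered 7 within 5 kb of the start site, where an anchor of HNF4A-AS1 is counted as well. The share of loops with a G4 motif was 98.6% (mock) and 100% (PDS) with spacers of up to 12 bases and 100% in both lists with runs of 2 G, which nearly every anchor holds. With gene bodies alone, 0 other factor genes had more mock loops than HNF4A.

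No paired analysis was possible because the lists combine the replicates, and leaving out each replicate was not run for the same reason. With 3 PETs in 54.1% of mock and 90% of PDS loops of the locus, single loops are known with little precision, and a loop in 1 list only can differ from the other list by 1 PET.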
